A study of Mus musculus with 12 samples.

Results

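The 72 genes described here are interferon-induced genes and the transcription factors of interferon signalling, out of 22317 genes in the count table. They were chosen by symbol alone: every Ifi gene (which takes in the IFIT and IFITM families and Ifih1), every Oas gene, the numbered interferon regulatory factors (IRFs), the numbered guanylate-binding proteins (GBPs), the STATs, Isg15, Isg20, Mx1, Mx2, Usp18, Rsad2, and the immunity-related GTPases Igtp, Irgm1, Irgm2 and Iigp1. By class they are 7 STATs, 9 IRFs, 7 oligoadenylate synthetases (OAS), 6 IFIT genes, 6 IFITM genes, 10 GBPs, 5 immunity-related GTPases (IRGs, with Ifi47), 8 genes of the Ifi200 family and 14 other induced genes. The libraries came from male wild-type BALB/c mice aged 8 weeks, in which a small area of the brain or of the skull had been made ischemic by photothrombosis, that is, by laser light on a dye (Rose Bengal) in the blood that closes the vessels there. SB2 and SB4 are labelled brain cortex, 2 and 4 days after injury of the skull, and BS2 and BS6 are labelled interparietal bone (a bone of the skull), 2 and 6 days after injury of the brain. Each of these 4 groups has 3 libraries of poly(A) RNA, which the study's methods call biological replicates. Nothing in the labels ties a library to an animal, so p-values measure the spread between these libraries. The question was how RNA at one site differs after injury of the other. Uninjured tissue and the injured sites themselves were not analysed here, so every comparison is between these groups and none is against a control.

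Interferons are secreted when cells sense foreign or misplaced nucleic acid (type I) or when T and NK cells are activated (interferon gamma). Their receptors activate JAK kinases and the STATs, STAT complexes with IRF9 bind the interferon-stimulated response element (ISRE), and STAT dimers bind the gamma-activated site (GAS). The targets include antiviral effectors such as the OAS, IFIT and Mx proteins, and the GBPs and IRGs, GTPases that act on vacuoles holding microbes and that respond strongly to interferon gamma. In brain, microglia and endothelium answer to interferon after injury, and in bone marrow its targets are expressed in myeloid cells.

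The content of the libraries has to be given before any result, since 2 groups went against their tissue labels. The summed level of 8 neuronal markers was 107 to 142 CPM (read counts relative to the library total, with TMM scaling across the 12 libraries) in the libraries labelled SB2 and 117 to 199 CPM in BS6, but 11990 to 12510 CPM in SB4 and 11600 to 11970 CPM in the libraries labelled BS2. The 6 matched osteoblast and osteocyte markers summed to 36040 to 41310 CPM in SB2 and 19780 to 80440 CPM in BS6, and to 8.34 to 11.9 CPM in SB4 and 11 to 19.2 CPM in BS2. SB2 and BS6 are therefore called bone-rich below, and SB4 and BS2 brain-rich, while the group names remain those of the labels. SB4 against SB2 and BS6 against BS2 each compare days, but in each the days cannot be told apart from brain-rich against bone-rich RNA. SB2 against BS6 and SB4 against BS2 compare libraries of like content, in which day, injured site and tissue label differ together. Like content here means alike in being bone-rich or brain-rich, and other content still differed. The summed neutrophil markers were at 840 to 1493 CPM in SB2 and 1441 to 25220 CPM in BS6. Whether the labels or the count columns of SB2 and BS2 were exchanged could not be settled from the labels and files. If they were, the injured site and tissue given here for these 6 libraries would be wrong, and SB4 against BS2 and SB2 against BS6 would each compare days within 1 tissue and injured site. Several other marker lists moved with the same split: 6 macrophage and monocyte markers summed to 881 to 2690 CPM in the bone-rich and 14.6 to 23.7 CPM in the brain-rich libraries, 6 neutrophil markers to 840 to 25220 CPM and 0.711 to 4.62 CPM, 4 endothelial markers to 482 to 661 CPM and 44.4 to 73.2 CPM, and 3 T cell markers to 5.28 to 13.7 CPM and 0.434 to 1.21 CPM. The endothelial sum was carried by Pecam1, Cdh5 and Tie1, while Cldn5 did not follow the split, at means of 18.4 and 29.0 CPM in SB2 and BS6 and 23.4 and 18.9 CPM in SB4 and BS2. The microglial markers did not move together: Tmem119 averaged 324.7 and 225.5 CPM in SB2 and BS6 against 16.7 and 15.3 CPM in SB4 and BS2, while P2ry12 averaged 10.3 and 14.6 CPM in SB2 and BS6 against 39.5 and 48.2 CPM in SB4 and BS2, Sall1 5.84 and 7.24 against 21.9 and 18.8 CPM, and Cx3cr1 20.5 and 28.2 against 32.4 and 31.8 CPM. The summed level of 4 markers of plasmacytoid dendritic cells did not follow the split, and its members went different ways. The sums were 8.9 to 36.8 CPM in SB2, 5.14 to 13.5 CPM in BS6 and 16.9 to 18.8 CPM in the brain-rich libraries. Siglech averaged 2.06 and 2.89 CPM in SB2 and BS6 against 13.4 and 14.8 CPM in SB4 and BS2. Ccr9 averaged 0.895 and 0.968 against 0.304 and 0.362 CPM, and Klk1 0.497 and 1.035 against 0.0839 and 0.200 CPM. Cox6a2, at 21.0, 3.62, 3.63 and 2.51 CPM in SB2, BS6, SB4 and BS2, made up most of the SB2 sum. The part of these cell types in the comparisons of days was not tested. In bulk RNA, fewer cells of a type and less RNA per cell cannot be told apart. Total counts per library were 14126082 to 18972654. BS6 replicate 2 stood apart, with a neutrophil marker sum of 25220 CPM against 1441 and 3366 CPM in the other BS6 libraries, and SB4 replicate 3 stood apart in the genes described here.

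Promoter sequence is shown for 8 members because the binding motifs of the interferon factors can be read in it, with genes that stand for the IRGs, the GBPs, the IFIT genes and the other induced genes. RefSeq promoter windows on GRCm38.p6 (mm10) were at hand for 53 of the 72 members. The ISRE core, GAAA then any 2 bases then GAAA, searched on both strands (TTTC, any 2 bases, TTTC on the other) in the 250 bases before the start, was present in 25 of the 53 genes (47.2%) and in 3.46% of the 27025 genes with a window. The GAS letters TTCNNNGAA, which read the same on both strands, were present in 12 of the 53 members (22.6%) and in 8.13% of all genes, and both motifs in 6 members (11.3%) and in 0.4% of all genes. By class, the ISRE core was found in 4 of 4 GBPs with a window, 5 of 6 IFIT genes, 3 of 4 IRGs, 4 of 6 Ifi200 genes, 3 of 5 OAS genes, 2 of 6 STATs, 1 of 8 IRFs, 1 of 6 IFITM genes and 2 of 8 other induced genes. The 160 bases before the RefSeq start are printed below from 5′ to 3′ in the direction of transcription, with ISRE and GAS matches in capitals. They lie at chr11:58199396-58199555 on the plus strand (Igtp), chr11:58214817-58214976 on the plus strand (Irgm2, shown beside its neighbour Igtp and chosen after its values were seen), chr11:48871421-48871580 on the minus strand (Irgm1), chr3:142620503-142620662 on the plus strand (Gbp2), chr4:156200819-156200978 on the minus strand (Isg15), chr19:34640729-34640888 on the plus strand (Ifit1), chr19:34583369-34583528 on the plus strand (Ifit3) and chr12:26456453-26456612 on the minus strand (Rsad2).
Igtp: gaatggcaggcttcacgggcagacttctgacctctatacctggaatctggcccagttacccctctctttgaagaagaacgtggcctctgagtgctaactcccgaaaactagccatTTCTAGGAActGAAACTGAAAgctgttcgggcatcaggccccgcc
Irgm2: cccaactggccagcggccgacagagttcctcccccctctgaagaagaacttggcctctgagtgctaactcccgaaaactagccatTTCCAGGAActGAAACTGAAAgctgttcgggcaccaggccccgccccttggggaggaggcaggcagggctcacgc
Irgm1: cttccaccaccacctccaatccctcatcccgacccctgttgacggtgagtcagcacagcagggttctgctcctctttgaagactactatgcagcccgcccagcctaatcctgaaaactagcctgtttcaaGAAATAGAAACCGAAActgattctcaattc
Gbp2: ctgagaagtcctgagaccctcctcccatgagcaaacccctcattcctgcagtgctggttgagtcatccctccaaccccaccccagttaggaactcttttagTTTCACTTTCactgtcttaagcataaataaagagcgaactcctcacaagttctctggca
Isg15: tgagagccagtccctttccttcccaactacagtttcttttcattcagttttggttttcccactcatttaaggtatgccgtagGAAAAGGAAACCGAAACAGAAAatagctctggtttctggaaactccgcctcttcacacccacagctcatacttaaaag
Ifit1: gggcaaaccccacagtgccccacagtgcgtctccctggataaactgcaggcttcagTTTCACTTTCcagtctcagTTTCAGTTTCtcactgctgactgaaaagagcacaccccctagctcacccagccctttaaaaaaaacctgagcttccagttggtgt
Ifit3: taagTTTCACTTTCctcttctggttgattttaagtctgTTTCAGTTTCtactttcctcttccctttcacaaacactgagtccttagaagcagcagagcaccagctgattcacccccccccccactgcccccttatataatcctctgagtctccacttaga
Rsad2: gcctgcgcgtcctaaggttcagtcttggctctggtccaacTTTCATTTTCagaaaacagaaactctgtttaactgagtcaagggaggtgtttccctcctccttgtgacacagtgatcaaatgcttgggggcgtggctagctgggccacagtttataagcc
Igtp and Irgm2 both carry a GAS match followed at 2 bases by the ISRE core, with the first base of the GAS match 45 bases before the start in Igtp and 75 bases before it in Irgm2. Irgm1 has 2 overlapping ISRE cores and Isg15 has 3, in each a repeat of GAAA and 2 further bases. In Gbp2, Ifit1, Ifit3 and Rsad2 the core lies on the other strand, once in Gbp2 and Rsad2 and 2 times in each IFIT gene. The genes shown were picked among those with a match to the ISRE core, so its presence in each was fixed by the choice. A match of letters is a description of the sequence and not evidence of binding.

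Across the 4 groups, most of the 72 genes followed the split in tissue content. Levels between genes are compared here per kilobase of exon. In SB2 the highest was Ifitm3, which blocks virus entry at membranes, at 471 CPM per kb, ahead of Ifi27l2a at 90.5 and Ifi27 at 75.5 CPM per kb. In BS6, Ifitm3 stood at 430.5 and Ifi27l2a at 117 CPM per kb, while a mean of 475 CPM per kb for Ifitm6 came from 1 library. The order differed in the brain-rich groups: in SB4 the highest was Oas1c at 31.9 CPM per kb, then Ifi27 at 18.5 and Ifitm3 at 15.7, and in BS2 it was Ifitm3 at 9.34, Ifi27 at 8.51 and Stat2 at 6.29 CPM per kb.

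**Figure D1:**
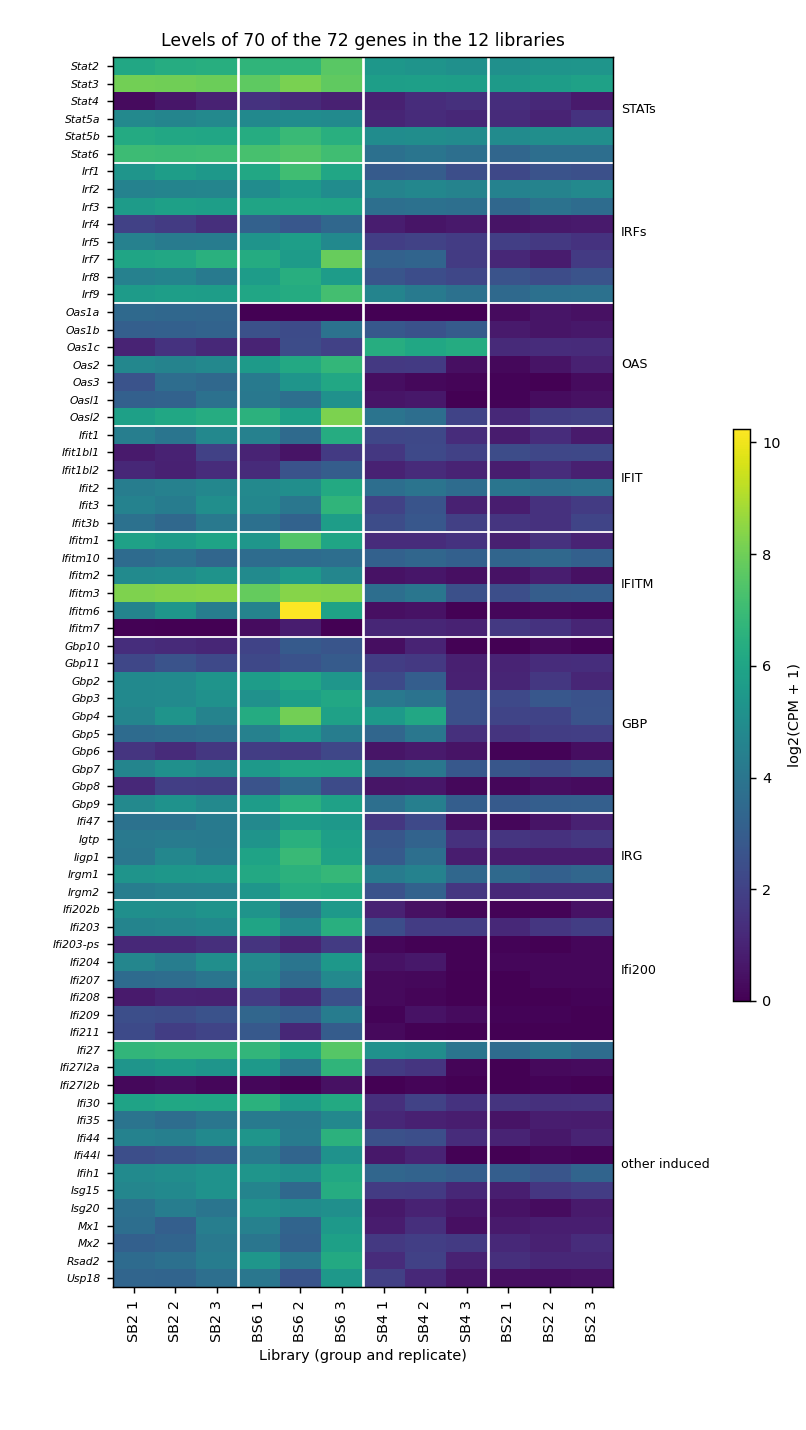
Level of 70 of the 72 genes, as log2(CPM + 1), in each of the 12 libraries, with the genes in rows by class and the libraries in columns by group and replicate. The bone-rich SB2 and BS6 libraries are brighter for most classes, the Oas1c row is bright only in SB4, and the third SB4 column is darker than the other SB4 columns in the GBP and IRG rows.

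Calls rest on the quasi-likelihood test of edgeR: the adjusted p (Benjamini-Hochberg, over all genes tested) had to be under 0.05 and the fold change over 1 in size on the log2 scale. In SB4 against SB2, 59 of the 71 members tested were lower and 3 were higher (Oas1c, Ifitm7 and Stat4), where 28.6% of all genes tested were called lower and 27.8% higher. The median log2 fold change of the members was -2.73, or -2.45 with the 6 members that had at most 3 counts in each library of one group set at the bound that 3 counts give, against -0.02 over all genes. The libraries of the 2 groups did not overlap for 64 of the 71 members, and 85.6% of all genes tested did not overlap either. In BS6 against BS2, 63 of the 70 members tested were higher and 2 were lower (Ifitm7 and Ifit1bl1), where 29.0% of all genes were called higher and 26.5% lower. Here the median was 4.72, or 4.43 with 11 members set at their bound, against 0.02 over all genes, and 66 members did not overlap against 80.7% of all genes. The 9 members not called in SB4 against SB2 were Gbp4, Gbp5, Ifit1bl1, Ifit1bl2, Ifit2, Ifitm10, Irf2, Iigp1 and Oas1b, and those not called in BS6 against BS2 included Ifitm10, Irf2, Oas1c and Stat4. Ifi27l2b passed the filter on low counts in no comparison. The difference between the changes, BS6 against BS2 minus SB4 against SB2, was positive for 64 of 71 members and negative for 3, where 37.8% and 35.8% of all genes were called so.

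Between libraries of like content far fewer members were called. In SB2 against BS6, 9 of the 70 members tested were lower and 1 was higher, against 1.11% and 0.741% of all genes. The median was -0.92 against -0.02 over all genes, and the libraries of 34 members did not overlap, against 38.1% of all genes. The 9 were all 5 IRGs, Irf4, Irf8, Gbp10 and Oas2, and the higher one was Oas1a. This result hung on single libraries: 0 members were called lower when any SB2 library or BS6 replicate 3 was left out, 3 when BS6 replicate 1 was left out, and 16 when BS6 replicate 2 was left out. Calls were lost over the whole table in the same omissions: 0% of all genes were called either way without any one SB2 library, 0.0897% lower and 0.102% higher without BS6 replicate 3, 0.102% each way without BS6 replicate 1, and 2.39% lower and 1.63% higher without BS6 replicate 2. Other tests called more members lower, 20 in DESeq2 (4.73% of all genes, with 2.01% higher) and 21 with all 12 libraries in one edgeR fit (5.24% of all genes, with 1.8% higher). In SB4 against BS2, 2 of the 50 members tested were higher (Oas1c and Oas1b) and 0 were lower, against 0.086% and 0.0614% of all genes, and at an unadjusted p under 0.05 edgeR gave 17 higher and 0 lower (6.32% and 5.56% of all genes). The median was 0.59 against 0.00 over all genes, and 14 members did not overlap, against 16.9% of all genes. Without SB4 replicate 3, 23 of 54 members tested were higher in SB4 than in BS2, where 0.411% of all genes were. Of 47 members with at least 10 counts in each SB4 library, 37 were lowest in that replicate. Leaving it out thus selects on the values tested, and the 23 calls are not separate evidence of a difference. Each group enters more than 1 of these comparisons, so they are not independent of each other.

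**Figure D2:**
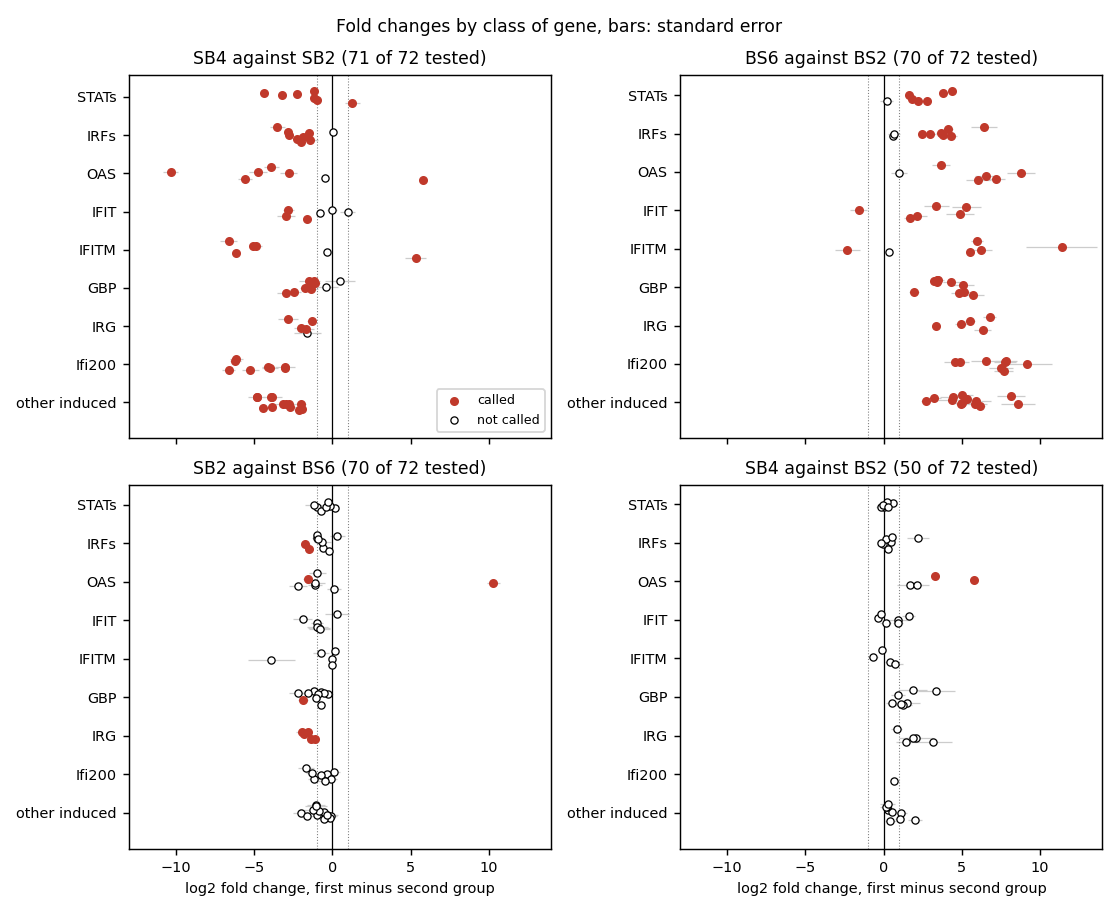
Log2 fold change (first minus second group) of the members tested in the 4 comparisons, by class, with the standard error as a bar, red points for called genes, open points for the others and dotted lines at a log2 fold change of 1 and -1. Most points lie below 0 in SB4 against SB2 and above 0 in BS6 against BS2, while 10 of 70 are red in SB2 against BS6 and 2 of 50 in SB4 against BS2.

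Of the STATs, which carry the signal from the receptor to the nucleus, 6 of 7 were lower in SB4 than in SB2 and 6 were higher in BS6 than in BS2, Stat4 being the exception in both. Stat3, which responds mainly to interleukin 6 and related cytokines, measured 264, 259 and 242 CPM in SB2, 53.2, 53.4 and 53.1 in SB4, 47.0, 50.6 and 57.8 in BS2, and 209, 288 and 213 in BS6. The bone-rich libraries lay above all brain-rich ones, by a log2 fold change of -2.25 ± 0.07 (SE) in SB4 against SB2 (edgeR adjusted p = 5.35e-11) and 2.19 ± 0.17 in BS6 against BS2 (edgeR adjusted p = 4.91e-05). Stat2 was at -1.01 ± 0.09 in SB4 against SB2, on the threshold, and at 1.83 ± 0.28 in BS6 against BS2. The former call was lost with DESeq2 or RLE size factors, and without any one of SB4 replicates 2 and 3 and SB2 replicates 2 and 3 (as far as -0.935). Stat6, the STAT of interleukin 4 and 13, fell by 3.23 ± 0.09 on the log2 scale in SB4 against SB2 and was 3.80 ± 0.16 higher in BS6 than in BS2. Stat4, which interleukin 12 activates, was low in every group, with means of 0.573 ± 0.373 (SD, n = 3), 1.37 ± 0.399, 1.16 ± 0.457 and 1.34 ± 0.449 CPM in SB2, SB4, BS2 and BS6. Its call as higher in SB4 than in SB2 (1.29 ± 0.46) was lost with DESeq2 (1.29, DESeq2 adjusted p = 0.0536). That call was also lost when any of 4 single libraries was left out, and the change was 1.91 without SB2 replicate 3. The genes Stat3 and Stat5a overlap in their exons on opposite strands.

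Of the 9 IRFs, 8 were lower in SB4 than in SB2 and 7 were higher in BS6 than in BS2. Irf7, which amplifies the type I response, measured 63.3, 69.0 and 89.7 CPM in SB2, 8.03, 8.87 and 2.41 in SB4, 1.19, 0.701 and 2.31 in BS2, and 77.3, 48.6 and 229 in BS6. SB2 and BS6 overlapped, and all SB4 libraries lay above all BS2 libraries, replicate 3 by the least. Its log2 fold change was -3.52 ± 0.46 in SB4 against SB2 (edgeR adjusted p = 0.00123), 6.42 ± 0.81 in BS6 against BS2 (edgeR adjusted p = 0.000488, and 5.51 without BS6 replicate 3) and 2.22 ± 0.71 in SB4 against BS2 (edgeR adjusted p = 0.341). Irf1, an early target of interferon gamma, measured 39.8, 50.6 and 43.6 CPM in SB2, 6.61, 7.18 and 4.49 in SB4, 3.67, 5.10 and 4.70 in BS2, and 68.7, 136 and 65.2 in BS6. Its BS6 libraries all lay above SB2, but the difference of -0.98 ± 0.30 for SB2 against BS6 was not called (edgeR adjusted p = 0.103). Irf4 and Irf8, factors of lymphoid and myeloid cells, were lower in SB2 than in BS6 without overlap: Irf8 measured 21.8, 23.4 and 17.8 CPM in SB2 and 50.1, 84.8 and 49.5 in BS6 (-1.52 ± 0.25, edgeR adjusted p = 0.0341), and Irf4 2.90, 2.43 and 1.57 CPM in SB2 and 7.94, 5.88 and 9.57 in BS6 (-1.73 ± 0.31, edgeR adjusted p = 0.038). Both calls were lost without any one SB2 library and without BS6 replicate 1 or 3 (edgeR adjusted p up to 0.182 for Irf8 and 0.181 for Irf4). The summed T cell markers were also lower in SB2 (5.28 to 6.76 CPM) than in BS6 (10.2 to 13.7 CPM), as were the B cell markers (17.3 to 27.0 and 29.1 to 61.7 CPM) and the macrophage and monocyte markers (881 to 1114 and 1327 to 2690 CPM), most of it Lyz2, while Adgre1 and Cd68 overlapped between the groups. The summed neutrophil markers were at 840 to 1493 CPM in SB2 and 1441 to 25220 CPM in BS6. The part of these cell types in the differences was not tested. Irf3, the factor that sensors of nucleic acid activate, had -2.02 ± 0.09 in SB4 against SB2 and 2.43 ± 0.14 in BS6 against BS2, Irf5 -2.79 ± 0.15 and 4.13 ± 0.30, and Irf9, a partner of STAT2, -1.49 ± 0.17 and 2.99 ± 0.33, all called. Irf2, a repressor of the same sites, was called in no comparison, with 22.1, 23.4 and 24.2 CPM in SB2, 22.8, 26.0 and 22.7 in SB4, 22.4, 22.6 and 27.4 in BS2, and 30.8, 46.9 and 30.5 in BS6, so that the BS6 libraries lay above all others.

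The IRGs, GTPases that interferon gamma induces, were the only class of which every member was called in SB2 against BS6. All 5 were lower in SB2 than in BS6 and all 5 were higher in BS6 than in BS2, and in SB4 against SB2 4 of 5 were lower. The calls in SB2 against BS6 were all lost without any one SB2 library, without BS6 replicate 3, and with the replicate number as a block. With 1 library left out, the edgeR adjusted p of each IRG there reached 0.182 or 0.183. Igtp measured 16.7, 18 and 17.4 CPM in SB2, 5.69, 8.55 and 1.75 in SB4, 2.01, 1.72 and 2.17 in BS2, and 38.9, 90.8 and 54.7 in BS6. Every BS6 library lay above every SB2 library, and SB4 replicates 1 and 2 lay above BS2 while replicate 3 lay within its range. The log2 fold change of Igtp was -1.79 ± 0.31 in SB2 against BS6 (edgeR adjusted p = 0.0365), 4.96 ± 0.38 in BS6 against BS2 (edgeR adjusted p = 5.28e-05) and -1.69 ± 0.51 in SB4 against SB2 (edgeR adjusted p = 0.0241). In SB4 against BS2 it was 1.44 ± 0.63 (edgeR adjusted p = 0.464), and 0.88 to 1.87 with 1 library left out (edgeR adjusted p of 3.35e-05 to 0.733), the highest without SB4 replicate 3. The call in SB4 against SB2 was not held throughout either (edgeR adjusted p of 0.000178 to 0.0763 with 1 library left out).

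Iigp1, which loads onto vacuoles and breaks them, measured 15.6, 25.9 and 18.8 CPM in SB2, 6.54, 12.2 and 0.767 in SB4, 0.711, 0.701 and 0.723 in BS2, and 60.3, 120 and 59.2 in BS6. Its 3 BS2 libraries were nearly equal, and SB4 spanned from their level to near that of SB2. The log2 fold change was 6.80 ± 0.41 in BS6 against BS2 (edgeR adjusted p = 2.15e-05) and -1.96 ± 0.35 in SB2 against BS6 (edgeR adjusted p = 0.038), and it was not called in SB4 against SB2 (-1.60 ± 0.85, edgeR adjusted p = 0.144) or in SB4 against BS2 (3.19 ± 1.21, edgeR adjusted p = 0.434). The change in SB4 against SB2 ran from -2.50 without SB4 replicate 2 to -1.05 without SB4 replicate 3, where it was called (edgeR adjusted p = 0.0278, of 0.0278 to 0.282 over the 6 omissions), as it was with all 12 libraries in one fit (-1.62, edgeR adjusted p = 0.0337). In SB4 against BS2 it was 2.29 without SB4 replicate 2, and 3.73 and called without SB4 replicate 3 (edgeR adjusted p = 7.84e-08, of up to 0.702 over the 6 omissions). Irgm1, a regulator of the other IRGs and of autophagy, measured 38.6, 42.0 and 43.5 CPM in SB2, 18, 21.9 and 9.65 in SB4, 10.4, 7.84 and 9.33 in BS2, and 71.8, 95.7 and 112 in BS6. It had the smallest differences of the 5 with the smallest errors, -1.14 ± 0.17 in SB2 against BS6 (edgeR adjusted p = 0.0319) and 3.34 ± 0.21 in BS6 against BS2 (edgeR adjusted p = 2.37e-05). Irgm2 and Ifi47 had -1.58 ± 0.26 and -1.39 ± 0.24 in SB2 against BS6, and 5.54 ± 0.32 and 6.35 ± 0.55 in BS6 against BS2, where Ifi47 was at 7.11 without BS2 replicate 3. Exons of Igtp and Irgm2 overlap on the same strand on chromosome 11, so their counts are uncertain against each other.

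**Figure D3:**
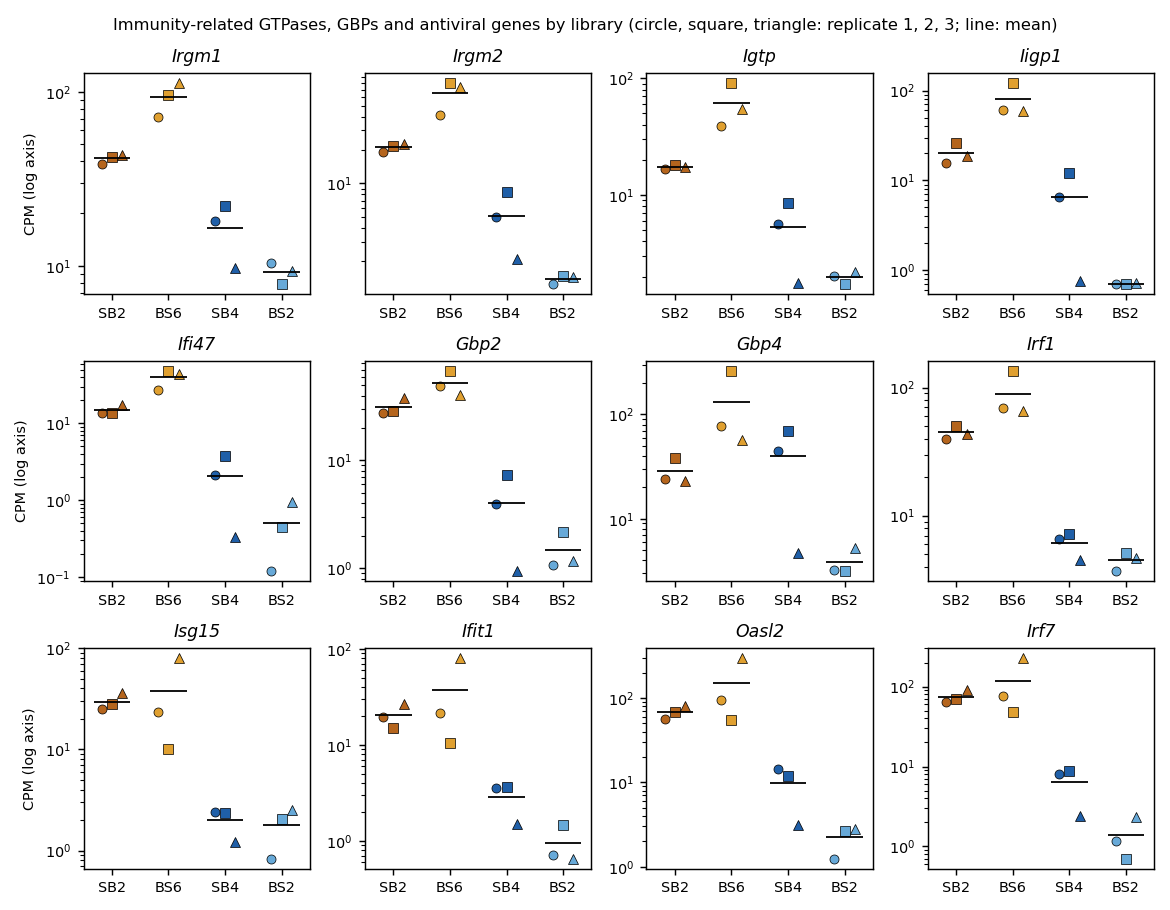
CPM on a log axis in each library for the 5 IRGs, Gbp2, Gbp4, Irf1, Isg15, Ifit1, Oasl2 and Irf7, with circles, squares and triangles for replicates 1, 2 and 3 and a line at the group mean. In SB4 the triangle of Gbp4 stands at 4.66 CPM, near the BS2 libraries, with the other SB4 libraries at 44.9 and 69.6 CPM, and in BS6 the square is the highest for Igtp and the triangle for Isg15.

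The 10 GBPs, large GTPases that coat and open microbe-holding vacuoles, lie in 2 clusters, Gbp2, Gbp3, Gbp5 and Gbp7 on chromosome 3 (chr3:142493978-142638008) and the others on chromosome 5 (chr5:105014150-105346472). All 10 were higher in BS6 than in BS2, 8 were lower in SB4 than in SB2, and 1 (Gbp10) was lower in SB2 than in BS6. Gbp2 measured 27.9, 28.9 and 38.4 CPM in SB2, 3.91, 7.33 and 0.932 in SB4, 1.07, 2.17 and 1.16 in BS2, and 49.4, 68.4 and 41.0 in BS6. No BS6 library was as low as an SB2 library, and SB4 replicate 3 was below all BS2 libraries while the other SB4 libraries were above them. Its log2 fold change was -2.94 ± 0.63 in SB4 against SB2 (edgeR adjusted p = 0.00882, and -3.76 without SB4 replicate 2) and 5.17 ± 0.35 in BS6 against BS2 (edgeR adjusted p = 3.44e-05). Gbp3 measured 28.3, 28.8 and 35.1 CPM in SB2, 16.4, 14.1 and 4.71 in SB4, 3.85, 5.80 and 4.99 in BS2, and 34.9, 53.9 and 68.7 in BS6, with -1.39 ± 0.45 in SB4 against SB2 (edgeR adjusted p = 0.0361) and 3.43 ± 0.30 in BS6 against BS2 (edgeR adjusted p = 9.86e-05). The former call was lost with no filter (-1.42, edgeR adjusted p = 0.0537) and without any of 5 single libraries. The log2 fold changes of Gbp3 were -1.67 to -0.99 over all 6 omissions. Gbp4 was wide apart in SB4, at 44.9, 69.6 and 4.66 CPM, against 24, 37.9 and 23.1 in SB2, 3.26, 3.12 and 5.21 in BS2, and 76.8, 263 and 57.3 in BS6. Gbp4, Gbp8 and Gbp9 share exon sequence on the same strand, and close paralogs on chromosome 5 may share reads, so values within that cluster are uncertain. Gbp10, with 1.53, 1.31 and 1.15 CPM in SB2 and 3.14, 6.57 and 5.5 in BS6, had -1.89 ± 0.34 in SB2 against BS6 (edgeR adjusted p = 0.038). That call was lost without any one SB2 library and without BS6 replicate 1 or 3 (edgeR adjusted p up to 0.182).

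The OAS enzymes make short chains of linked adenylate that activate RNase L. Oas2 measured 25.7, 22.6 and 26.3 CPM in SB2, 2.27, 2.38 and 0.329 in SB4, 0.178, 0.446 and 0.940 in BS2, and 47.4, 71.5 and 109 in BS6. All BS6 libraries lay above all SB2 libraries, and SB4 replicate 3 fell within the BS2 range. It was lower in SB4 than in SB2 (-3.91 ± 0.48, edgeR adjusted p = 0.000356), higher in BS6 than in BS2 (7.22 ± 0.58, edgeR adjusted p = 6.41e-05, and 7.90 without BS2 replicate 3) and lower in SB2 than in BS6 (-1.58 ± 0.30, edgeR adjusted p = 0.0409). The last call was lost whichever single library was left out (edgeR adjusted p of 0.0534 to 0.186). Oasl2, an OAS-like protein with antiviral activity, measured 56.0, 67.6 and 80.8 CPM in SB2, 14.5, 12 and 3.12 in SB4, 1.24, 2.68 and 2.82 in BS2, and 95.7, 54.9 and 298 in BS6. SB2 and BS6 overlapped, and the wide BS6 range came from replicate 3. Its log2 fold change was -2.80 ± 0.55 in SB4 against SB2 (edgeR adjusted p = 0.0069) and 6.06 ± 0.81 in BS6 against BS2 (edgeR adjusted p = 0.000615, and 5.08 without BS6 replicate 3). Oas3 had 92 to 179 counts in SB2, 2 to 4 in SB4, 0 to 3 in BS2 and 255 to 1074 in BS6, and was at least 215-fold higher in BS6 than in BS2, taking 3 counts in each BS2 library as the limit that so few reads allow.

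The Oas1 genes did not follow the split in tissue content. Oas1a (chr5:120896256-120907521) had 179, 146 and 157 counts in SB2 and 4, 8 and 5 in BS2, and 0 counts in all SB4 and all BS6 libraries. It was thus counted in every library of day 2 and in none of day 4 or 6, and it was at least 54.6-fold higher in SB2 than in SB4 (edgeR adjusted p = 2.44e-08) and at least 50.3-fold higher in SB2 than in BS6 (edgeR adjusted p = 0.0124). The call against BS6 was lost without any one SB2 library (edgeR adjusted p of 0.000248 to 0.181 over the 6 omissions). Oas1c (chr5:120800194-120812514) had 1167, 1294 and 1435 counts in SB4 and 18, 28 and 21 in SB2, 22, 23 and 19 in BS2, and 15, 68 and 46 in BS6. SB4 lay above every other library, with 76.6 ± 7.54 CPM (SD, n = 3) against 1.38 ± 0.417, 1.38 ± 0.0816 and 2.74 ± 1.64 CPM in SB2, BS2 and BS6. Its log2 fold change was 5.82 ± 0.16 in SB4 against SB2 (edgeR adjusted p = 3.35e-11) and 5.79 ± 0.13 in SB4 against BS2 (edgeR adjusted p = 3.33e-18). Oas1b (chr5:120812635-120824163), annotated as a polymorphic pseudogene, had 134, 120 and 141 counts in SB2, 84, 95 and 120 in SB4, 11, 8 and 8 in BS2, and 73, 66 and 212 in BS6. BS2 was below all other libraries, and Oas1b was higher in SB4 than in BS2 by 3.31 ± 0.26 on the log2 scale (edgeR adjusted p = 1.12e-07). Rph3a, a neuronal gene outside the family at chr5:120940499-121010092 on the far side of Oas1a and on the same strand, had 8758, 8059 and 7599 counts in BS2 and 155, 230 and 235 in SB4, although both groups were brain-rich, with 37, 46 and 5 in SB2 and 1, 12 and 0 in BS6. How reads were counted here, on which annotation and strand, is not given in the sources used here. The deposited counts are labelled raw gene counts, and nothing beyond that label says whether a batch correction had been applied. These folds are therefore folds of the deposited counts, which may not be those of the transcripts, and the part of the counting was not tested.

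**Figure D4:**
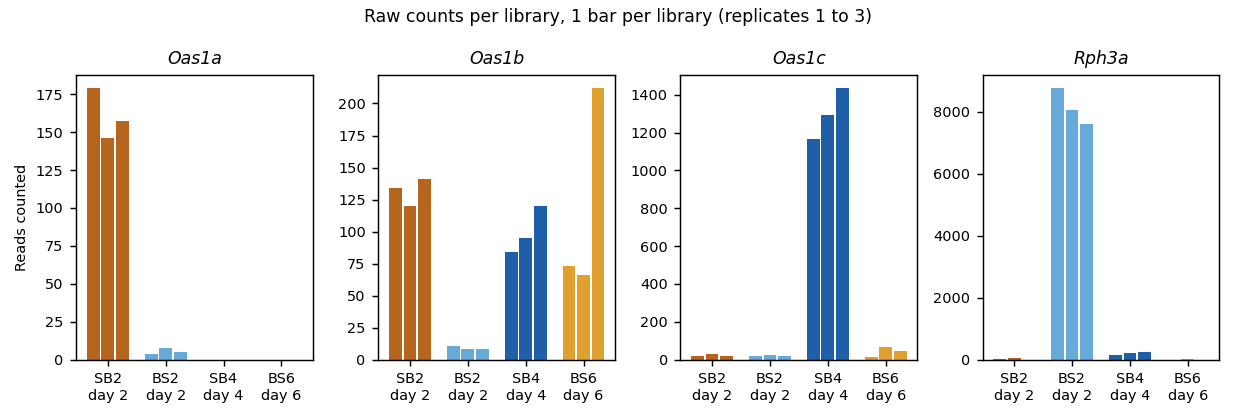
Raw counts of Oas1a, Oas1b, Oas1c and Rph3a in each library, as bars from 0 with 1 bar per replicate and an axis of its own for each gene. Oas1a reaches 146 to 179 counts in SB2 and 4 to 8 in BS2 and has no bar on days 4 and 6, and Oas1c reaches 1167 to 1435 counts in SB4 alone.

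The IFIT proteins bind viral RNA that lacks the host's cap marks, and their 6 genes form a cluster at chr19:34550694-34650009. Ifit1 measured 19.6, 15.0 and 26.7 CPM in SB2, 3.56, 3.64 and 1.48 in SB4, 0.711, 1.47 and 0.651 in BS2, and 21.5, 10.5 and 80.7 in BS6. BS6 spanned the whole SB2 range, with replicate 3 above it and replicate 2 below it. Its log2 fold change was -2.82 ± 0.35 in SB4 against SB2 (edgeR adjusted p = 0.000155), 5.30 ± 0.94 in BS6 against BS2 (edgeR adjusted p = 0.00217) and 1.60 ± 0.39 in SB4 against BS2, short of the threshold (edgeR adjusted p = 0.0676). The last was called with DESeq2, with no filter, with the replicate block, without SB4 replicate 3 and without BS2 replicate 2 (adjusted p = 0.0286, 0.0185, 0.0105, 0.00154 and 0.0471), and the adjusted p ran from 0.00154 to 1 over all alternatives. Without BS6 replicate 3 the change in BS6 against BS2 was 4.07, the lowest of the 6 omissions (edgeR adjusted p of up to 0.0133). Ifit3 measured 22.3, 18.6 and 32.8 CPM in SB2, 3.06, 5.33 and 0.932 in SB4, 0.770, 1.78 and 2.46 in BS2, and 26.1, 15.6 and 104 in BS6, with -2.96 ± 0.58 and 4.87 ± 0.90 in the comparisons of days (edgeR adjusted p = 0.00546 and 0.00266), and -3.65 without SB4 replicate 2 and 3.66 without BS6 replicate 3. Ifit2 differed less, with means of 22.2 ± 3.43, 12.5 ± 1.56, 13.9 ± 1.03 and 44.1 ± 24.8 CPM (SD, n = 3) in SB2, SB4, BS2 and BS6. Ifit1bl1 went the other way from its neighbours, with 4.21, 3.57 and 3.62 CPM in BS2 and 1.00, 0.438 and 2.33 in BS6 (-1.59 ± 0.53, edgeR adjusted p = 0.0315), a call lost without any of 4 single libraries (edgeR adjusted p up to 0.085) and at -2.39 without BS6 replicate 3.

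The IFITM genes code for small membrane proteins that hinder the entry of viruses, and 4 of the 6 were higher in BS6 than in BS2 and lower in SB4 than in SB2. Ifitm3 measured 306, 322 and 330 CPM in SB2, 12.2, 15.1 and 4.71 in SB4, 4.56, 7.14 and 7.30 in BS2, and 222, 334 and 320 in BS6. The bone-rich groups overlapped each other, as did the brain-rich ones, and none of the former reached down to the latter. The log2 fold change was -4.89 ± 0.42 in SB4 against SB2 (edgeR adjusted p = 0.000225) and 5.53 ± 0.28 in BS6 against BS2 (edgeR adjusted p = 1.21e-05), and 0.16 ± 0.17 in SB2 against BS6 (edgeR adjusted p = 0.577). Ifitm6 measured 23.8, 40.5 and 19.4 CPM in SB2, 0.355, 0.422 and 0.0548 in SB4, 0.118, 0.191 and 0.145 in BS2, and 22.8, 1209 and 59.3 in BS6. Its highest BS6 value was in replicate 2, the library with the neutrophil marker sum of 25220 CPM, and the part of that in the value was not tested. Ifitm6 was at least 2203-fold higher in BS6 than in BS2 (edgeR adjusted p = 0.00377), and its fitted log2 fold change was 11.40 with and 8.02 without that library, and the bound was 210-fold without it. Ifitm7, on chromosome 16 away from the others, went the other way, with 1.14, 1.16 and 0.987 CPM in SB4 against 1 count in all SB2 libraries together (at least 5.99-fold higher, edgeR adjusted p = 2.23e-05), and 2.25, 1.85 and 1.08 CPM in BS2 against 0.267, 0.751 and 0 in BS6 (-2.32 ± 0.81, edgeR adjusted p = 0.0364). The latter call was lost without any of 4 single libraries (edgeR adjusted p up to 0.109), and the change was -3.64 without BS6 replicate 2. Its exons overlap another gene on the opposite strand.

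The 8 genes of the Ifi200 family, whose proteins include sensors of DNA, lie together at chr1:173630917-173982744. All 8 were lower in SB4 than in SB2 (28.6% of all genes were) and higher in BS6 than in BS2 (29.0% of all genes). In SB2 against BS6, 0 were called, and 2 of 8 did not overlap, where 38.1% of all genes did not. Ifi204, the best known of the mouse DNA sensors among them, measured 25, 19.3 and 32.7 CPM in SB2, 0.426, 0.581 and 0.0548 in SB4, 0.118, 0.128 and 0.145 in BS2, and 26.9, 14.6 and 42.8 in BS6. The bone-rich libraries overlapped each other and lay far above the others. Its log2 fold change was -6.15 ± 0.42 in SB4 against SB2 (edgeR adjusted p = 2e-06, and -6.80 without SB4 replicate 2), and it was at least 144-fold higher in BS6 than in BS2 (edgeR adjusted p = 5.68e-05). Ifi207 had 11, 11.6 and 14.9 CPM in SB2 and was at least 69.9-fold lower in SB4 (edgeR adjusted p = 2.67e-08), where its libraries held 0 to 3 counts. Ifi211 had 0 counts in all BS2 libraries and 6.28, 1.19 and 6.79 CPM in BS6, at least 24.3-fold higher (edgeR adjusted p = 0.00596). In the brain-rich groups 7 of the 8 genes had 0 to 14 counts in each library and were too low to be tested in SB4 against BS2, while the other, Ifi203, had 62, 48 and 46 counts in SB4 and 21, 32 and 36 in BS2.

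Of the other induced genes, 13 of 14 passed the filter in the comparisons of days, and all 13 were lower in SB4 than in SB2 and higher in BS6 than in BS2. Isg15, a ubiquitin-like modifier, measured 25.2, 27.8 and 35.9 CPM in SB2, 2.42, 2.32 and 1.21 in SB4, 0.830, 2.04 and 2.53 in BS2, and 23.5, 10.1 and 80.1 in BS6. Both pairs of like content overlapped, and BS6 spread from 10.1 CPM in replicate 2 to 80.1 CPM in replicate 3. The log2 fold change was -3.90 ± 0.24 in SB4 against SB2 (edgeR adjusted p = 1.41e-07) and 4.41 ± 0.90 in BS6 against BS2 (edgeR adjusted p = 0.00422). The latter was 3.23 without BS6 replicate 3 and 3.23 to 4.88 over the 6 omissions (edgeR adjusted p of up to 0.0208). Usp18, which removes ISG15 and dampens type I signalling, measured 9.04, 8.73 and 12.3 CPM in SB2, 2.84, 1.27 and 0.438 in SB4, 0.355, 0.319 and 0.362 in BS2, and 15.5, 5.25 and 43.1 in BS6. Rsad2 (viperin), which makes a chain-terminating nucleotide, measured 11, 12.9 and 18.6 CPM in SB2, 1.49, 2.90 and 0.987 in SB4, 1.60, 1.21 and 1.23 in BS2, and 40.4, 16.6 and 74.3 in BS6. Both were lowest in BS6 replicate 2 and highest in BS6 replicate 3, and their log2 fold changes were -2.77 ± 0.50 and -2.94 ± 0.37 in SB4 against SB2 and 5.91 ± 0.95 and 5.01 ± 0.62 in BS6 against BS2, where they were 4.88 and 4.39 without BS6 replicate 3. Usp18 was at -3.50 in SB4 against SB2 without SB4 replicate 1.

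Mx1 and Mx2, dynamin-like GTPases against viruses, measured 12.1, 7.48 and 20.1 and 7.73, 8.79 and 16.4 CPM in SB2, and 21.4, 8.88 and 44.3 and 15.3, 8.13 and 55.3 CPM in BS6. SB2 and BS6 overlapped for both, with means of 0.892 ± 0.672 and 2.42 ± 0.233 CPM (SD, n = 3) in SB4 and 0.759 ± 0.0941 and 1.19 ± 0.280 CPM in BS2. Ifih1 (MDA5), a sensor of double-stranded RNA, had -1.91 ± 0.13 in SB4 against SB2 and 2.71 ± 0.34 in BS6 against BS2, Ifi44 -2.73 ± 0.38 and 5.87 ± 0.76, and Isg20, an exonuclease, -4.46 ± 0.26 and 6.18 ± 0.28, all called. Isg20 measured 13.1, 19.1 and 14.9 CPM in SB2 and 34.4, 28.5 and 33.2 in BS6, without overlap, at a log2 fold change of -0.998 ± 0.173 in SB2 against BS6 (edgeR adjusted p = 0.0362), just short of the fold threshold. Ifi30, a thiol reductase of antigen-presenting cells, measured 60.2, 66.9 and 65.8 CPM in SB2, 1.64, 3.01 and 1.86 in SB4, 1.90, 1.66 and 1.74 in BS2, and 92.6, 48.2 and 73.5 in BS6, so that each pair of like content overlapped. Ifi27, a mitochondrial protein, was the most abundant of these genes per length in SB4, at 35.1, 31.3 and 14.9 CPM, all above the 11.4, 14.7 and 11.4 CPM of BS2 (1.11 ± 0.39, edgeR adjusted p = 0.399), and measured 106, 113 and 114 CPM in SB2 and 104, 67.1 and 185 in BS6. Ifi27l2a measured 39.4, 46.8 and 39.5 CPM in SB2, 2.42, 1.95 and 0.110 in SB4, 0, 0.191 and 0.217 in BS2, and 44.4, 15.3 and 103 in BS6, and was at least 278-fold higher in BS6 than in BS2 (edgeR adjusted p = 0.000501). That bound rests on BS6 replicate 3, without which it was 153-fold. Without the same library Ifi44 was at 5.04 in BS6 against BS2.

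The median ratio between libraries of one group was larger for the members than for all genes. The genes were not matched for count, and low counts alone raise this ratio, so the excess is not shown to belong to the members. Among members with at least 10 counts in each library of the group, the median ratio of the highest to the lowest library was 1.33 in SB2 (68 members, 1.19 over all such genes), 1.78 in SB4 (47 members, 1.15), 1.33 in BS2 (43 members, 1.16) and 2.30 in BS6 (67 members, 1.41). In SB4, 37 of the 47 were lowest in replicate 3 and 3 were highest there, where 32.4% of all such genes were lowest in that library. Among these were GBPs and IRGs, as Igtp at 5.69, 8.55 and 1.75 CPM and Gbp5 at 9.31, 15.5 and 1.64 CPM. The 23 members higher in SB4 than in BS2 without that library were 6 GBPs (log2 fold changes of 1.23 to 3.92), 5 IRGs (1.13 to 3.73), 4 OAS genes (2.20 to 5.77), 4 other induced genes (1.41 to 3.99), 2 IFIT genes (1.16 and 1.92), Ifitm3 (1.13) and Irf7 (2.63), in edgeR's quasi-likelihood test on 2 SB4 and 3 BS2 libraries. Since the members were mostly lowest in the library left out, this raises SB4 and narrows its spread in the values tested. With all libraries 2 of 50 members were called higher. The summed markers of SB4 replicates 1, 2 and 3 were 152, 155 and 155 CPM for microglia, 16.1, 23.1 and 14.6 CPM for macrophages and monocytes, 57.3, 71.4 and 73.2 CPM for endothelium, 4.62, 4.49 and 2.19 CPM for neutrophils and 1.07, 1.21 and 1.04 CPM for T cells, and their part in the difference was not tested.

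The highest BS6 library was not the same one in each class, and the classes were not compared by a test. Replicate 3 was the highest BS6 library for 39 of 67 members (25.4% of all such genes), among them all 8 Ifi200 genes, 5 of 5 IFIT genes, 5 of 6 OAS genes and 11 of 13 other induced genes. Replicate 2 was the highest for 25 of 67, a smaller share than the 43.5% of all such genes, among them 7 of 10 GBPs, 4 of 5 IRGs and 4 of 5 IFITM genes, with 5 of 8 IRFs and 4 of 7 STATs nearer to that share. So Isg15 and Ifit1 were lowest in replicate 2 (10.1 and 10.5 CPM) while Igtp and Gbp4 were highest there (90.8 and 263 CPM). Replicate 1 was the highest for 3 of the 67. Of the 38 members called in BS6 against BS2 whose values were followed under each omission, 12 moved by over 1.5 times without replicate 3, 2 without replicate 2 and 0 without replicate 1. The BS6 libraries also differed in content, with marker sums for replicates 1, 2 and 3 of 56890, 19780 and 80440 CPM for osteoblasts and osteocytes, 1441, 25220 and 3366 CPM for neutrophils and 2338, 2690 and 1327 CPM for macrophages and monocytes. Most of the last sum was Lyz2 (1857, 2245 and 986 CPM), which neutrophils express too. Adgre1 (64.4, 20.3 and 25.7 CPM) and Cd68 (178, 54.2 and 91.4 CPM) were lowest in replicate 2. Ccr2 (91.5, 195.6 and 85.8 CPM) and Ly6c2 (7.61, 43.2 and 19.3 CPM) were highest there, and Mrc1 measured 139, 131 and 119 CPM. The part of these cell types in the differences between libraries was not tested.

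**Figure D5:**
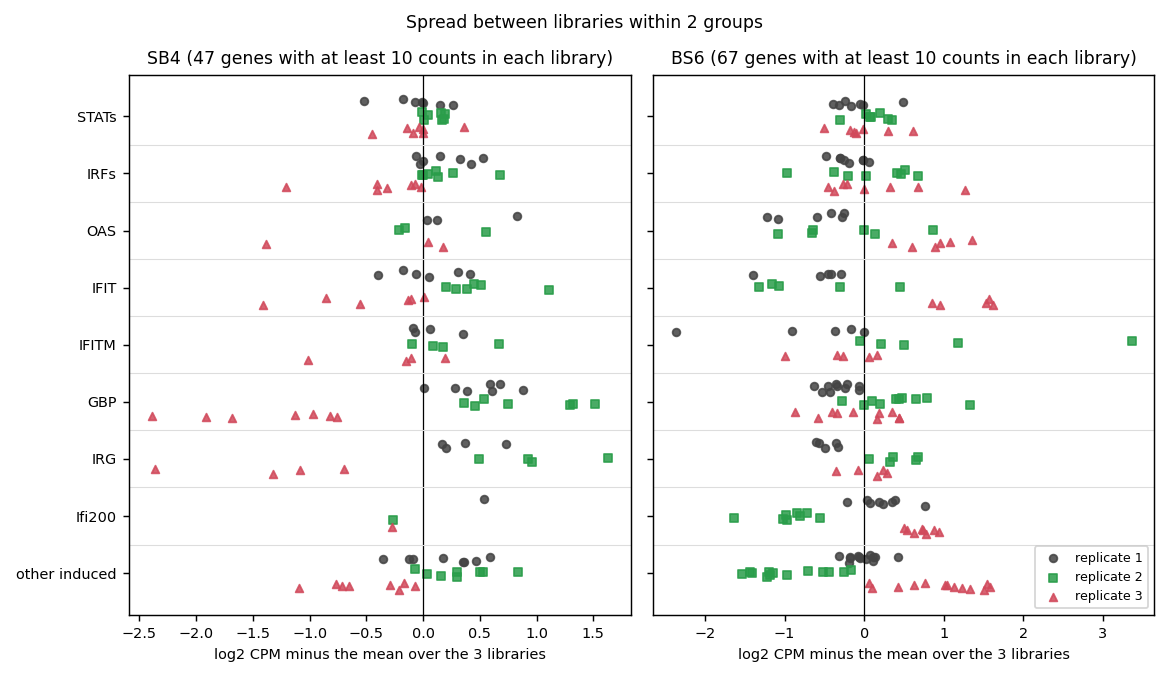
Log2 CPM of each member minus its mean over the 3 libraries of the group, by class, for members with at least 10 counts in each library of SB4 (left, 47 genes) and BS6 (right, 67 genes), with a circle, square and triangle for replicates 1, 2 and 3. In SB4 the triangles lie left of 0 for the GBPs and IRGs, and in BS6 the triangles lie right of 0 and the squares left of it for the Ifi200 and most other induced genes.

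Other genes of the pathway, listed by function, followed the members in the comparisons of days. Of 53 genes (receptors and their kinases, negative regulators, sensors of nucleic acid and induced genes outside the rule), 36 were lower and 4 higher in SB4 than in SB2, against 28.6% and 27.8% of all genes. Of 52 tested, 41 were higher and 0 lower in BS6 than in BS2, against 29.0% and 26.5% of all genes. There edgeR gave 4 lower at an unadjusted p under 0.05 (37.7% of all genes) and DESeq2 called 1 lower (22.7%). The interferon genes on the list had no match in the table and were not analysed here. Ifngr1, the ligand-binding chain of the interferon gamma receptor, measured 127, 148 and 136 CPM in SB2, 12.2, 14.1 and 10.9 in SB4, 12.6, 13.6 and 12.9 in BS2, and 138, 201 and 147 in BS6 (-3.45 ± 0.10 and 3.63 ± 0.17 in the comparisons of days). Jak1, the kinase that both receptor types use, was at 212 ± 15.2, 218.5 ± 0.725, 225 ± 8.10 and 214 ± 19.8 CPM (SD, n = 3) in SB2, SB4, BS2 and BS6 and was called in no comparison. The 4 genes higher in SB4 were Adar (1.90 ± 0.07), an RNA-editing enzyme, Cmpk2 (1.83 ± 0.15), Herc6 (1.43 ± 0.10) and Pias1 (1.11 ± 0.08), an inhibitor of STAT signalling, and none was called in SB4 against BS2, at log2 fold changes of 0.12, 0.04, -0.01 and -0.03. In SB2 against BS6, 5 of 53 were lower and 0 higher, against 1.11% and 0.741% of all genes (4 higher at an unadjusted p under 0.05, with 14.6% of all genes, and 1 in DESeq2): Nlrc5, the activator of MHC class I genes (-2.08 ± 0.32), Tgtp2, a further IRG (-2.20 ± 0.27), Sp100 (-1.62 ± 0.23), Parp14 (-1.25 ± 0.22) and Tlr7, a sensor of single-stranded RNA (-1.003 ± 0.175), each with an edgeR adjusted p of 0.0282 to 0.0375. Tgtp1, on the same list, was not called, with means of 3.74 CPM in SB2 and 10.1 CPM in BS6. The count lower among the 53 was 0 without any one SB2 library (0% of all genes) or BS6 replicate 3 (0.0897%), 2 without BS6 replicate 1 (0.102%) and 9 without BS6 replicate 2 (2.39%). In SB4 against BS2, 0 of 45 were called by edgeR, with 10 higher and 0 lower at an unadjusted p under 0.05 (6.32% and 5.56% of all genes) and 3 higher in DESeq2 (0.173% of all genes). Without SB4 replicate 3, 8 were higher (0.411% of all genes).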

How the data were processed

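Poly(A) RNA-seq libraries of 4 groups (n = 3 each) were analysed as the read counts per gene that the authors deposited. The submitters' processing notes name HISAT2 2.1.0 and the mm10 build. The study's methods name ComBat_seq for removing batch effects. The deposited counts are labelled raw gene counts. Beyond that label, whether ComBat_seq had been applied to them is not given in the sources used here. Nor are the counting program, its annotation and its use of strand. The table has 22317 genes and 0 unused sample columns, with 14126082 to 18972654 counts per library.

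In R 4.3.3, edgeR 4.0.16 filtered genes (filterByExpr, minimum count 10), scaled by TMM and ran the robust quasi-likelihood test on the 6 libraries of each comparison, with Benjamini-Hochberg adjustment over all genes tested. Calls needed an adjusted p below 0.05, and a log2 fold change beyond 1 in size. The SE is the size of that change divided by the square root of F. CPM used TMM factors over 12 libraries. A group with at most 3 counts in every library was set to 3 counts per library, and the fold given as at least that. These floors cover counting error only. Libraries of a group differed beyond sampling noise. On simulated counts for SB4 against BS2, 100% of 100 genes changed by 2 and of 100 changed by 3 on the log2 scale were recovered, with 2 false calls among 16285 genes. The simulation gave every gene the same dispersion and placed changes only in genes above a set mean count. That spread was not the one of members such as Iigp1, Irf7 and Gbp4, at log2 fold changes of 3.19, 2.22 and 3.38 and not called in SB4 against BS2. The share recovered therefore does not apply to such members or to those with few counts.

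Coordinates are from GENCODE M21 on mm10, matched by symbol for all 72 members, and promoter windows from RefSeq (GRCm38.p6). Of the members, 30 share exon bases with another annotated gene, 15 of them with one on the opposite strand, and close paralogs may share reads, so those counts are uncertain. The members and lists were chosen with earlier results of these data known. Genes named with values came from a fixed list plus, in each comparison, the 3 called members at either end of the order of log2 fold changes. Irf2, Irgm2, Ifi47, Gbp4, Gbp5, Ifit2, Ifi203 and Rph3a, and the named pathway genes, were added after their values were seen. The settings varied were the test (DESeq2 1.42.0), the size factors (RLE or upper-quartile), the filter (none, or every library at 10 counts or more), no fold threshold, all 12 libraries in one fit, the replicate number as a block, and leaving out each library. Ifnb1, Ifng, Ifna2, Ifna4, Ifne, Ifnk and Ifitm5, and the cell markers Bglap, Mepe, Calcr, Mpo, Elane, Vpreb1, Cd3e and Cd3d, were not matched by symbol and were not analysed here. Some members enter the counts only and are not reported by name here.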

Additional observations from a re-analysis of the deposited data

Results flagged for a closer look

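The changes between days were opposite in the pairs of groups. The difference of the changes, BS6 against BS2 minus SB4 against SB2, was tested in edgeR over all 12 libraries, and of 71 members tested 64 were positive and 3 negative, where 37.8% of all genes were called positive and 35.8% negative. It was 10.43 ± 0.55 (log2, SE) for Ifitm3, 9.95 for Irf7, 8.42 for Iigp1, 8.32 for Isg15, 6.66 for Igtp and 4.45 for Stat3. The 3 negative members were Ifitm7 (-7.62), Oas1c (-4.81) and Ifit1bl1 (-2.56). Since SB4 and BS2 were brain-rich and SB2 and BS6 bone-rich, this difference cannot be told apart from the difference in tissue content.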

How the results depend on the processing

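The comparisons of days kept their direction under every alternative run, and no called value of a named gene changed sign. With at least 10 counts required in every library, fewer genes were tested, and the members called were 1 higher and 35 lower of 45 tested in SB4 against SB2 (23.4% and 24.8% of all genes), 38 and 0 of 41 in BS6 against BS2 (25.3% and 22.7%), 0 higher of 66 in SB2 against BS6 (0.725%) and 1 higher of 42 in SB4 against BS2 (0.0596%), and the difference of the changes was called in 37 and 1 of 40 (35.0% and 33.8%). In SB2 against BS6, members lower numbered 20 of 69 in DESeq2 (4.73% of all genes) and 21 of 71 with all 12 libraries in one fit (5.24%), with pathway genes at 1 higher and 12 lower in each, and upper-quartile factors gave 1 pathway gene higher (0.802%). In SB4 against BS2, members higher numbered 6 of 61 in DESeq2 (0.173%) and 4 of 72 with no filter (0.117%, with 1 lower against 0.108%), and pathway genes higher 3 of 50 and 1 of 53, and 1 of 45 with adjusted p alone (0.571%). In BS6 against BS2, pathway genes lower numbered 1 in DESeq2 (22.7%) and 3 with adjusted p alone (36.8%). The cause was not tested.

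Replicate numbers did not pair the libraries (correlation of deviations -0.094 to 0.062 over same-numbered pairs). With the replicate block, SB2 against BS6 gave 0 members higher, 0 lower and 0 pathway genes lower (0% of all genes either way), SB4 against BS2 gave 5 of 50 members higher (0.135%), BS6 against BS2 gave 1 pathway gene lower (26.5%), and SB4 against SB2 gave 4 members higher and 55 lower (27.7% and 28.5%), with Oasl2, Ifit3, Gbp2 and Gbp3 no longer called (edgeR adjusted p = 0.0509, 0.0501, 0.0543 and 0.108).

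With 1 library left out, members called were 2 to 4 higher and 52 to 57 lower in SB4 against SB2 (27.3% to 28.2% and 28.3% to 28.5% of all genes), 62 to 64 and 0 to 2 in BS6 against BS2 (27.8% to 29.0% and 25.3% to 27.2%), 0 to 1 and 0 to 16 in SB2 against BS6 (0% to 1.63% and 0% to 2.39%), and 2 to 23 and 0 to 0 in SB4 against BS2 (0.0662% to 0.411% and 0.0421% to 0.284%). Pathway genes were 4 to 4 and 33 to 36, 39 to 42 and 0 to 2, 0 to 1 and 0 to 9, and 0 to 8 and 0 to 0 in the same order, and the difference of the changes was 64 to 64 and 3 to 4 members (36.8% to 37.5% and 35.3% to 36.3% of all genes). The extremes of 0 and 16 in SB2 against BS6 came without any SB2 library or BS6 replicate 3 and without BS6 replicate 2, and that of 23 in SB4 against BS2 without SB4 replicate 3. Stat2 in SB4 against SB2 was at the fold threshold and crossed it with DESeq2, with RLE factors and without any one of SB4 replicates 2 and 3 and SB2 replicates 2 and 3. Few counts limit the Ifi200, OAS and IFITM genes in the brain-rich libraries, and with 3 libraries a group a difference that was not called is not shown to be absent.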
